A study of Mus musculus with 9 samples.

Results

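The 39 protein-coding Hox genes were described in 3 sorted keratinocyte populations of mouse back skin. They were chosen by name alone: of the 55357 gene identifiers measured, these are the rows whose protein-coding symbol is Hoxa, Hoxb, Hoxc or Hoxd followed by digits. The Hoxa cluster gave 11 of them, the Hoxb cluster 10, and the Hoxc and Hoxd clusters 9 each. Messenger RNA was measured by poly(A) RNA-seq in 9 libraries: 3 of Touchdome, 3 of HF (hair follicle) and 3 of IFE (interfollicular epidermis) cells. All mice had the genotype TNC-CREER; tdTomato on the C57BL/6 background and were 60 days old. Every group therefore carried the Cre driven by Tenascin-C and the reporter, and every group had received tamoxifen at 100 µg per g of body weight on postnatal days 51 and 52. Touchdome cells were sorted as positive for SCA1 and for the reporter, HF cells as negative for both, and IFE cells as positive for SCA1 and negative for the reporter. All of them were positive for the epithelial protein EPCAM and for integrin α6, a basal keratinocyte adhesion protein. The reporter marks cells by Tenascin-C activity at the time of tamoxifen, and the HF gate is set by the absence of SCA1, so neither gate selects a cell by its place in the skin. Nothing in the labels ties the 3 libraries of a group to different animals. The p-values thus measure library-to-library spread, which may be technical.

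Hox genes encode homeodomain transcription factors that give cells their position along the head-to-tail axis of the embryo. They lie in clusters in which gene order follows the order of expression along that axis, low-numbered genes toward the head and high-numbered genes toward the tail and the ends of the limbs, and genes with the same number in different clusters are paralogs. Adult skin cells keep part of this code according to the body site they come from. In the hair follicle Hoxc13 has a further role, since mice that lack it grow brittle hair that breaks off and leaves them bald.

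Depth was 10735431 to 15477297 expected counts in Touchdome, 9295059 to 21358479 in HF and 14647371 to 28249763 in IFE libraries. A count of 0, at 3 counts of the scaled total, allows up to 0.114 CPM (counts scaled to library size) in the deepest library and 0.316 CPM in the shallowest. Touchdome replicate 3 stood apart from its group. On the first principal component over all genes tested, with 59.2% of the variance, it lay at -2.86, against -37.6 and -40.7 for Touchdome replicates 1 and 2, 89.2 to 98.7 for HF and -75.4 to -57.5 for IFE libraries. IFE replicate 2 differed most from its group, with a chi-square per degree of freedom of 75.9 and 70.6 to the other IFE libraries, against 16.8 to 27.3 for the remaining pairs within groups. Of the gate genes, Tnc was highest in the reporter-positive Touchdome and Ly6a was lowest in the SCA1-negative HF. TPM is a level scaled to transcript length and to the same total in each library. Tnc, the gene that drives the Cre, had 47.2 to 68.4 TPM in Touchdome, 10.2 to 15 TPM in HF and 0.23 to 1.55 TPM in IFE. HF and IFE, both negative for the reporter, were thus not alike in Tnc. Ly6a, which encodes SCA1, had 261 to 330.5 TPM, 1.16 to 4.36 TPM and 263 to 379 TPM in the same order. Itga6 and Epcam, the genes of the other sort proteins, stood above 100 TPM in each of the 9 libraries. The 4 markers of basal keratinocytes summed to 27550 to 30910 TPM in Touchdome, 15120 to 16190 TPM in HF and 31810 to 36200 TPM in IFE.

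The Hox genes in use lay at positions up to 9, with Hoxc13 as the exception at the far end. Counting a gene as detected at 1 TPM or more in at least 2 of the 3 libraries of a group, 23 of the 39 were detected in Touchdome, 25 in HF and 20 in IFE, beside 24.8%, 25.4% and 23.8% of all identifiers in these groups. Detection covered 8 Hoxa and 8 Hoxb genes in each group. The groups differed in the other clusters: Touchdome had 5 Hoxc and 2 Hoxd genes, HF had 5 Hoxc and 4 Hoxd genes, and IFE had 4 Hoxc and 0 Hoxd genes. The 20 genes detected in IFE were detected in all 3 groups. Hoxc13, Hoxd4 and Hoxd8 were added in Touchdome and HF, and Hoxd3 and Hoxd9 in HF alone by this criterion.

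Beyond position 9 the clusters were nearly silent. Of the 12 genes at positions 10 to 13, which in the embryo mark the rear of the trunk, the limbs and the genitalia, 10 had 0 counts in all 9 libraries: Hoxa10, Hoxa11, Hoxa13, Hoxb13, Hoxc10, Hoxc11, Hoxd10, Hoxd11, Hoxd12 and Hoxd13. The remaining members of those positions were Hoxc12 and Hoxc13. At the other end of the clusters, Hoxb1, a gene of the embryonic hindbrain, had 2 counts in Touchdome, 0 in HF and 2 in IFE, and Hoxd1 had 0 in Touchdome, 3 in HF and 0 in IFE. Both are at or under the floor of 3 counts, so no fold is given for them.

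**Figure D1:**
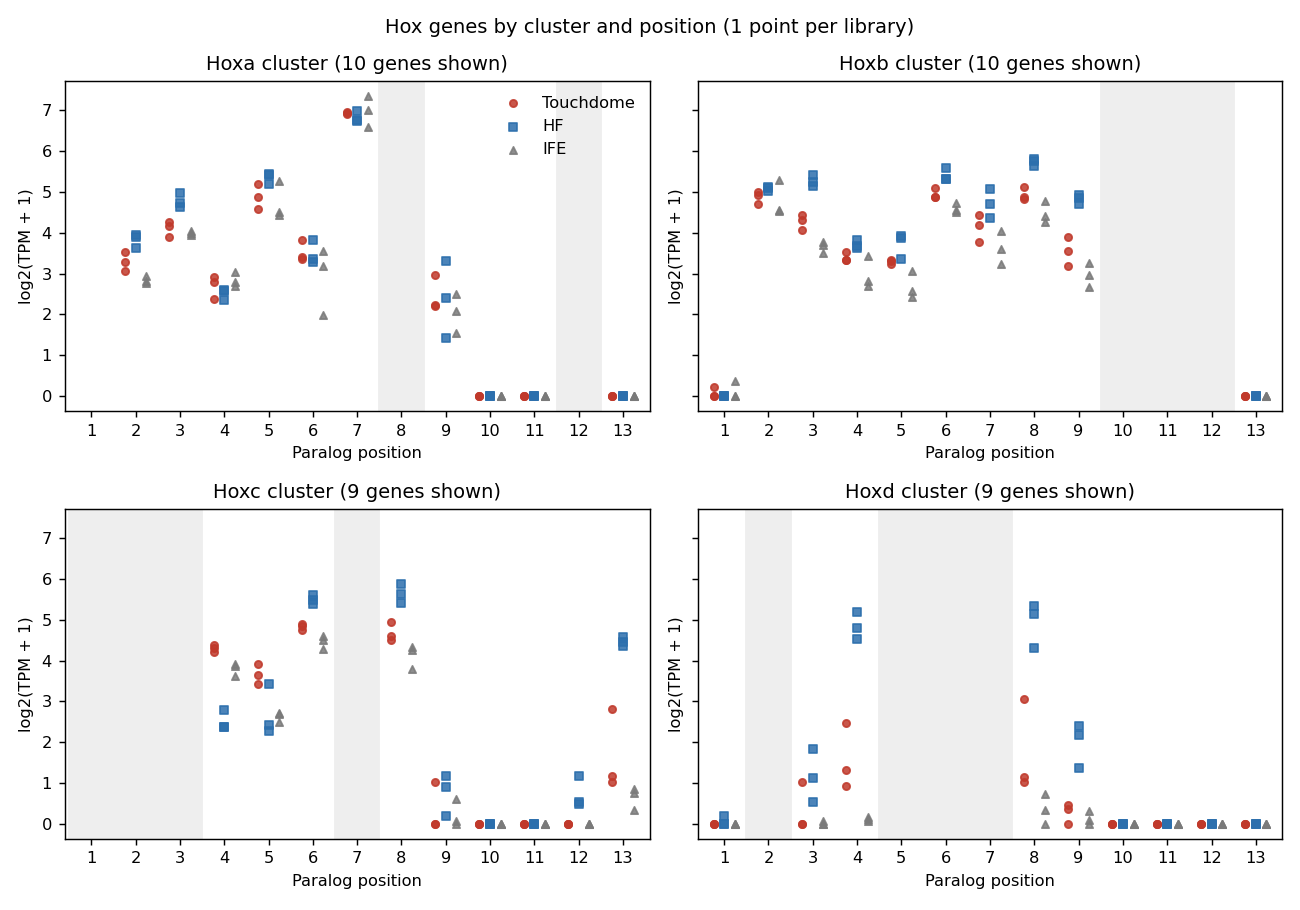
Level of 38 Hox genes as log2(TPM + 1) on the vertical axis, by paralog position on the horizontal axis and by cluster in 4 panels, with 1 point per library for Touchdome (circles), HF (squares) and IFE (triangles); grey bands are positions that the cluster lacks. Hoxa7 is the highest point of each group, 10 of 12 genes at positions 10 to 13 lie at 0, and the squares stand above the other symbols at Hoxc13, Hoxd4, Hoxd8 and Hoxd9 but below them at Hoxc4.

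Hoxa7, which in human keratinocytes is known to hold back differentiation genes, was the highest Hox gene per transcript length in each group. It had 123, 121 and 119 TPM in Touchdome, 125, 108 and 106 TPM in HF, and 128, 162 and 95.6 TPM in IFE. Its lowest library stood above the highest library of the next gene in each of the 3 groups, whereas below it most neighbours in the order overlapped. The next genes were Hoxb6, Hoxb8 and Hoxa5 in Touchdome, with means of 30.0, 29.9 and 29.1 TPM. In HF they were Hoxb8, Hoxc8 and Hoxc6, with means of 52.2, 49.2 and 44.2 TPM, and in IFE they were Hoxb2, Hoxa5 and Hoxb6, with means of 27.5, 26.7 and 23.3 TPM. Within each of these trios the library ranges of neighbours in the order overlapped, so their order is not resolved.

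Summed over the 39 genes, HF carried the most Hox RNA. The sum was 443 ± 14.8 TPM in Touchdome, 646 ± 21.5 TPM in HF and 369 ± 60.8 TPM in IFE (SD, n = 3 each). The HF libraries lay above all others, while the Touchdome libraries (426, 451 and 452 TPM) overlapped the IFE libraries (364, 432 and 310.4 TPM). The Hoxa cluster gave 44.7 ± 3.10% of the sum in Touchdome, 33.0 ± 1.72% in HF and 52.8 ± 2.96% in IFE, and these library ranges did not overlap. The Hoxb cluster gave 34.5 ± 0.976%, 37.5 ± 0.604% and 31.3 ± 1.31% in that order of groups, and the Hoxc cluster 19.4 ± 1.35%, 19.6 ± 0.768% and 15.7 ± 2.88%. The Hoxd cluster was the least used and the most unequal: its share was 0.632%, 0.515% and 2.92% in the Touchdome libraries, 9.90 ± 2.97% in HF and 0.148 ± 0.106% in IFE.

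**Figure D2:**
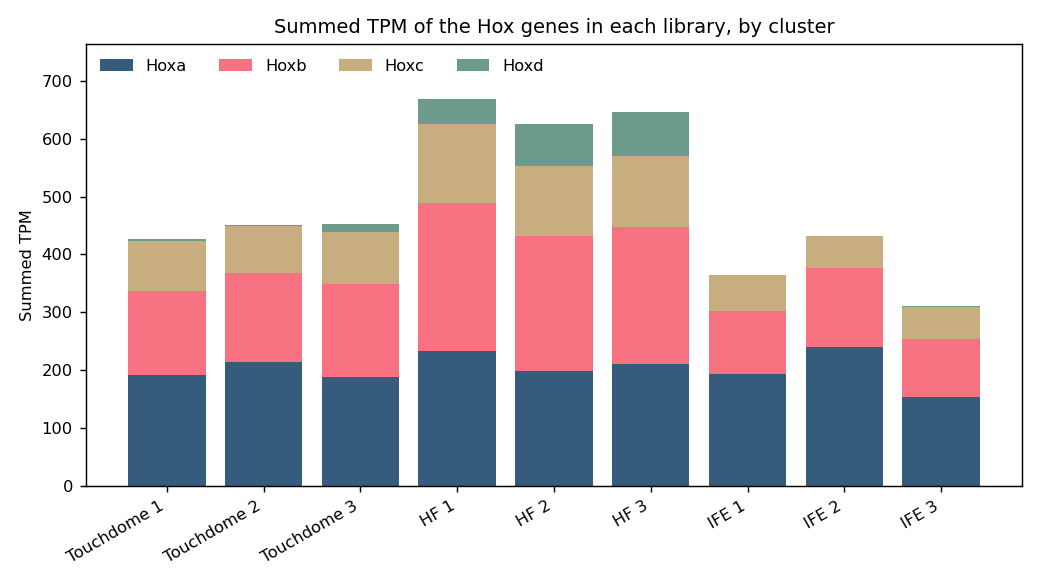
Summed TPM of the Hox genes in each of the 9 libraries on the vertical axis, split by cluster, with the libraries of Touchdome, HF and IFE along the horizontal axis. The bars of HF reach 625 to 668 TPM and carry 43.2 to 74.6 TPM of Hoxd genes, against 2.32 to 13.2 TPM in Touchdome and 0.31 to 0.84 TPM in IFE; the Hoxa part is of similar height in the 3 groups.

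By position, the differences between HF and the other groups were unevenly spread. Position 7, held by Hoxa7 and Hoxb7, summed to 138 ± 3.54 TPM in Touchdome, 139 ± 12.5 TPM in HF and 140.3 ± 36.9 TPM in IFE, which is within the spread of the libraries. Position 8 summed to 58.0 ± 11.3 TPM in Touchdome, 132 ± 4.95 TPM in HF and 38.6 ± 6.75 TPM in IFE. Position 9 had the same order at a lower level, with 16.2 ± 1.31 TPM, 36.2 ± 3.58 TPM and 10.5 ± 1.32 TPM. In both of these positions the libraries of HF lay above those of Touchdome, and those of Touchdome above those of IFE. The same order without overlap held at positions 3, 4 and 6, and at position 13 through Hoxc13. Position 3 summed to 35.05 ± 2.32 TPM in Touchdome, 65.7 ± 3.065 TPM in HF and 26.7 ± 1.40 TPM in IFE. Position 6 summed to 68.1 ± 4.08 TPM, 96.4 ± 10.6 TPM and 51.9 ± 4.98 TPM. At positions 2 and 5 HF lay above both other groups, which overlapped.

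Each gene was tested in 3 comparisons with edgeR, with adjusted p-values over the 15046 genes that passed a filter on low counts, 26 Hox genes among them. The 13 others were the 10 genes at 0, Hoxb1, Hoxc12 and Hoxd1. Between Touchdome and IFE, cells of the same SCA1 gate that differ in the reporter, 2 Hox genes were higher in Touchdome (Hoxd4 and Hoxd8) and 0 were lower, beside 1.22% of all tested genes higher and 0.0798% lower (1.30% in either direction). At an unadjusted p under 0.05 these counts were 7 and 0, beside 1047 higher and 558 lower among all 15046 genes, and with DESeq2 3 and 0, the third gene being Hoxc13. Between Touchdome and HF, 2 Hox genes were higher in Touchdome (Hoxc4 and Hoxc5) and 11 were lower, beside 11.8% of all tested genes higher and 12.8% lower (24.6% in either direction). Between HF and IFE, 15 were higher in HF and 1, Hoxc4, was lower, beside 17.1% of all tested genes higher and 16.0% lower (33.0% in either direction). A gene expressed in HF alone could pass the filter through HF alone, so these counts describe the genes tested and not the whole family. The comparisons share libraries and are not independent of each other.

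The median log2 fold change of the 26 tested Hox genes was 0.38 for Touchdome against IFE, -0.48 for Touchdome against HF and 0.85 for HF against IFE, and the medians over all tested genes were 0.00, -0.00 and 0.00. By cluster, HF against IFE gave 2 of 8 tested Hoxa genes higher and 0 lower, 6 of 8 Hoxb genes higher and 0 lower, 3 of 6 Hoxc genes higher and 1 lower, and 4 of 4 Hoxd genes higher. The tested Hoxd genes passed the filter without IFE, so this last count was partly set by the selection. Touchdome against HF gave 0 higher and 1 lower among the Hoxa genes, 0 and 4 among the Hoxb genes, 2 and 3 among the Hoxc genes, and 0 and 3 among the Hoxd genes. Touchdome against IFE gave edgeR calls in the Hoxd cluster alone. Of all tested genes, 17.1% were higher and 16.0% lower in HF against IFE. In Touchdome against HF 11.8% were higher and 12.8% lower, and in Touchdome against IFE 1.22% and 0.0798%.

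**Figure D3:**
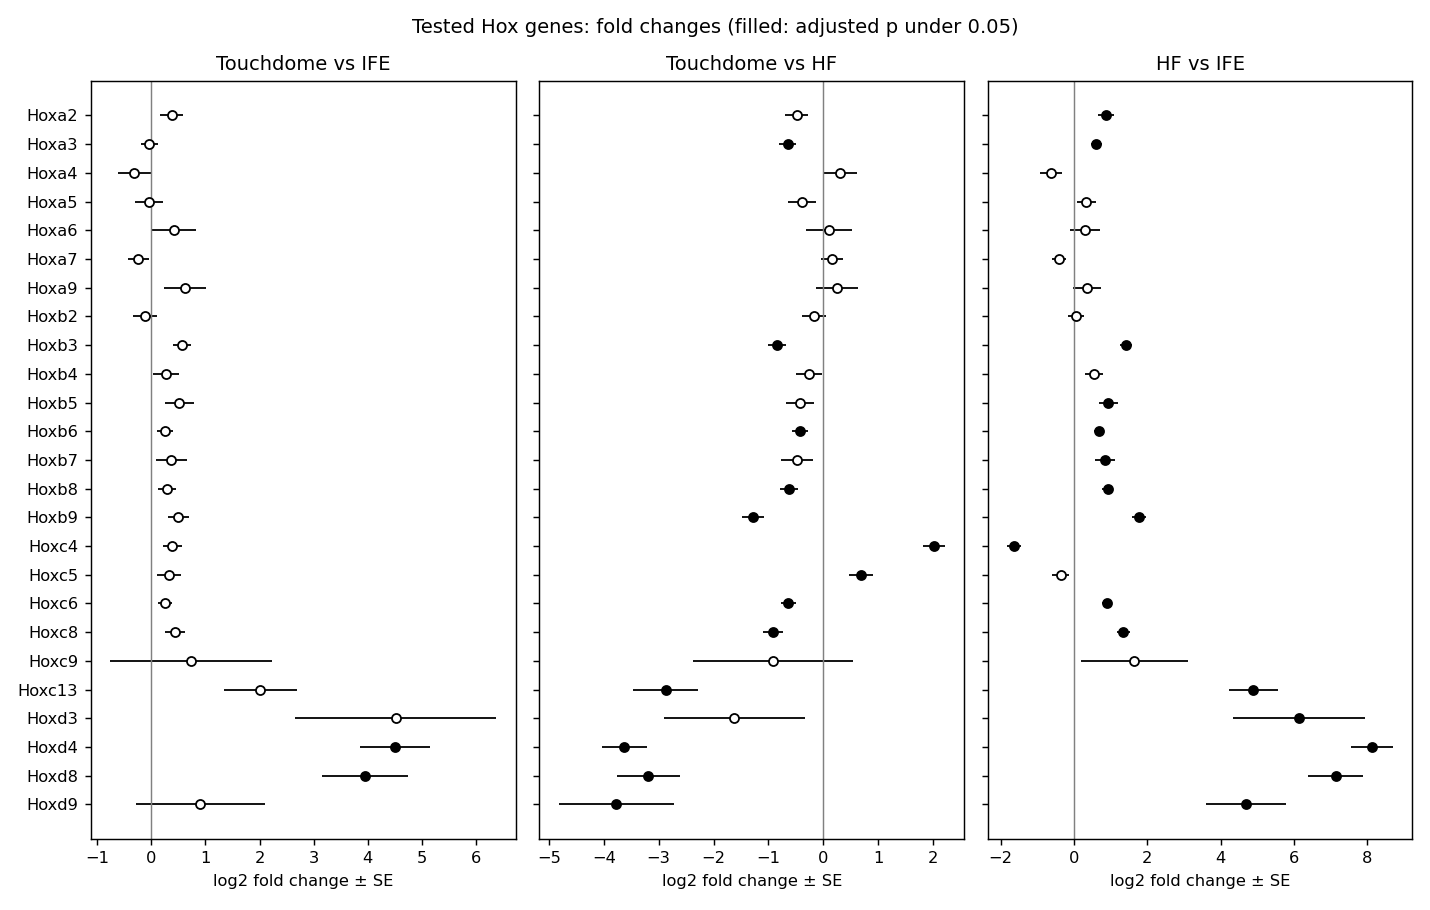
Log2 fold change with its SE (horizontal axis) of 25 tested Hox genes (rows, by cluster and position) in the comparisons Touchdome against IFE, Touchdome against HF and HF against IFE; filled points have an edgeR adjusted p under 0.05, and each panel has its own scale. The Hoxd genes and Hoxc13 are the farthest from 0 in the comparison of HF with IFE, where Hoxc4 is the filled point on the negative side.

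By edgeR with all libraries, Hoxd4, Hoxd8 and Hoxd3 had the 3 greatest log2 fold changes of a tested Hox gene between HF and IFE. That of Hoxd3 rests on 1 count in IFE and ran from 1.15 to 7.87 over the alternatives, and with limma on either scale it was below that of Hoxc13. Along chromosome 2 the detected members lie next to each other in the order Hoxd9, Hoxd8, Hoxd3 and Hoxd4, and all of them rose in HF against IFE. In that order they had 7, 11, 1 and 5 counts in IFE, and Hoxd9 and Hoxd3 were detected in HF alone. They passed the filter without IFE, so their shared direction was partly set by the selection. Their neighbours Hoxd10 to Hoxd13 on one side were at 0, and Hoxd1 on the other side did not exceed 3 counts. The promoters of Hoxd9, Hoxd8, Hoxd3 and Hoxd4 are shown here, as the 250 bases before and 50 bases after the RefSeq gene start on GRCm38.p6. All are on the plus strand, with CG dinucleotides in capitals. The windows are chr2:74697513-74697812 for Hoxd9, chr2:74704365-74704664 for Hoxd8, chr2:74711743-74712042 for Hoxd3 and chr2:74721728-74722027 for Hoxd4.
Hoxd9: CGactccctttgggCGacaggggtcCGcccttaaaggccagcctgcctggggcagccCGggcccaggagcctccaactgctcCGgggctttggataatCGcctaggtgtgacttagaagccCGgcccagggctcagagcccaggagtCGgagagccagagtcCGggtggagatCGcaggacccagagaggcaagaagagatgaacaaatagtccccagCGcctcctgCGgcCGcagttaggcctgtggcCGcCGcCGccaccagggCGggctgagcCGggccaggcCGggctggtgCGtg
Hoxd8: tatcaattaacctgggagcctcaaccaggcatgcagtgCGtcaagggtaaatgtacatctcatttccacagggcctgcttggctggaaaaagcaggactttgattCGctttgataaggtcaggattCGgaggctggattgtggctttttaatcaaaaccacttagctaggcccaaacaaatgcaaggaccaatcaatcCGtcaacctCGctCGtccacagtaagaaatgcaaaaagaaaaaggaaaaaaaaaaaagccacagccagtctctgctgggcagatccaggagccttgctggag
Hoxd3: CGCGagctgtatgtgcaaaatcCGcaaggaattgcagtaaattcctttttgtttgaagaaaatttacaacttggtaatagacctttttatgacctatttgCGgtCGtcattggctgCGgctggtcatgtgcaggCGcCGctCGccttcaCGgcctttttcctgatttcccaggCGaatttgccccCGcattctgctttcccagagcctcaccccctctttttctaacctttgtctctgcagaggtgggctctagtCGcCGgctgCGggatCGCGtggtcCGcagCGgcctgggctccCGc
Hoxd4: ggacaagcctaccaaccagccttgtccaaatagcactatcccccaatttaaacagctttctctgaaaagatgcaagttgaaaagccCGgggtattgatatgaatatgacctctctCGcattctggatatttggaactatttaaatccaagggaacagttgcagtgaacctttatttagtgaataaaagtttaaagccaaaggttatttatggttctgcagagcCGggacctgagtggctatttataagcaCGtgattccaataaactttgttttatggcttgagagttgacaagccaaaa
These windows differ in CG content: those of Hoxd9 and Hoxd3 hold 20 CG dinucleotides each, that of Hoxd8 holds 6 and that of Hoxd4 holds 4, where the median over 32851 promoters is 7. On either strand, TGATTNAT (a PBX-HOX site), TGACAG (a MEIS site) and TAATTA (a homeodomain core) were in none of the 4 windows, and they were in 3.22%, 19.2% and 5.29% of all promoters. Also searched on both strands, the TATA box letters TATAAA were matched once, in the window of Hoxd4 and on the strand opposite to the gene. They were matched in 13.6% of all promoters. A match describes letters and is not a site.

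Hoxd4, a gene of the embryonic hindbrain and neck, had 1.49, 0.89 and 4.54 TPM in Touchdome, 22.2, 26.7 and 35.6 TPM in HF, and 0.04, 0.08 and 0.13 TPM in IFE. The 3 groups did not overlap, and Touchdome lay between the others in each library. Between HF and IFE the log2 fold change of Hoxd4 was 8.13 with an SE of 0.58 (adjusted p = 7.36e-07, edgeR). In Touchdome it rose by 4.50 ± 0.64 against IFE (adjusted p = 0.00400, edgeR) and fell by 3.62 ± 0.41 against HF (log2; adjusted p = 4.45e-05, edgeR). The call against IFE was lost with limma on log2(TPM + 1), where the log2 fold change was 1.45 (adjusted p = 0.141). Without Touchdome replicate 3, the log2 fold change of Touchdome was 3.73 against IFE and -4.40 against HF, and both were called. The IFE level rests on 5 counts over the 3 libraries, beside 1166 in HF. In bulk libraries such as these, fewer cells that express a gene and less RNA per cell cannot be told apart.

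Hoxd8, which takes part in patterning of the trunk, had 1.20, 1.05 and 7.37 TPM in Touchdome, 18.8, 39.4 and 34.3 TPM in HF, and 0.27, 0 and 0.65 TPM in IFE. As with Hoxd4, no group overlapped another, and Touchdome replicate 3 was the highest of its group. The log2 fold change was 7.14 ± 0.76 for HF against IFE (adjusted p = 6.42e-05, edgeR), -3.19 ± 0.57 for Touchdome against HF (adjusted p = 0.00255, edgeR) and 3.95 ± 0.79 for Touchdome against IFE (adjusted p = 0.0481, edgeR). Without Touchdome replicate 3, those of Touchdome were -4.22 against HF and 2.92 against IFE, and both were called. The value against IFE lies at the threshold with all libraries and was lost in 10 of 16 alternative settings, among them leaving out any single HF or IFE library (adjusted p = 0.0636 to 0.174).

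Hoxd9, which acts in the forelimb and the trunk, was lower in level: 0, 0.38 and 0.28 TPM in Touchdome, 1.56, 4.23 and 3.51 TPM in HF, and 0, 0.25 and 0.06 TPM in IFE. HF lay above both other groups, which overlapped. Hoxd9 rose in HF against IFE by 4.68 ± 1.09 (adjusted p = 0.00509, edgeR) and fell in Touchdome against HF by 3.77 ± 1.05 (log2; adjusted p = 0.0187, edgeR). The second call was lost without Touchdome replicate 1, HF replicate 2 or HF replicate 3 (adjusted p = 0.0546 without Touchdome replicate 1). Its log2 fold change was -4.44 without Touchdome replicate 2, and that of HF against IFE was 6.11 without IFE replicate 2. Touchdome and IFE had 9 and 7 counts of Hoxd9 in all, and the log2 fold change between them was 0.91 ± 1.20 (adjusted p = 0.894, edgeR).

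Hoxd3, a gene of the neck vertebrae, had 0, 0 and 1.02 TPM in Touchdome, 0.46, 2.59 and 1.17 TPM in HF, and 0, 0.05 and 0 TPM in IFE. All Touchdome counts of Hoxd3 came from replicate 3, which lay inside the range of HF. With 70.1 expected counts in HF and 1 in IFE, the ratio was 89.5-fold with an exact 95% counting interval of 15.6 to 3586 (adjusted p = 0.0199, edgeR). The difference between HF and IFE was no longer called without HF replicate 2, IFE replicate 1 or IFE replicate 3. Between Touchdome and HF the adjusted p was 0.416, and 0.0118 without Touchdome replicate 3. Hoxd3 and Hoxd4 share exons on the same strand in GENCODE M21, 62.3% of the exon bases of Hoxd3 and 52.3% of those of Hoxd4 being shared with other genes, so the division of reads between them is uncertain. Their TPM values summed to 1.49, 0.89 and 5.56 in Touchdome, 22.7, 29.3 and 36.8 in HF, and 0.04, 0.13 and 0.13 in IFE, with no overlap between groups.

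Hoxc13, the regulator of hair keratins, followed the same order. It had 1.04, 1.24 and 6.05 TPM in Touchdome, 21, 19.5 and 22.8 TPM in HF, and 0.70, 0.26 and 0.82 TPM in IFE. The HF libraries lay close together and far above the rest, and the lowest Touchdome library stood just above the highest IFE library. Hoxc13 was higher in HF than in IFE by 4.88 ± 0.67 (adjusted p = 0.000457, edgeR) and fell in Touchdome against HF by 2.87 ± 0.60 (log2; adjusted p = 0.00696, edgeR). Between Touchdome and IFE the log2 fold change was 2.01 ± 0.67 (adjusted p = 0.286, edgeR), and DESeq2 called the difference (log2 fold change 2.07, adjusted p = 0.00869). Without Touchdome replicate 3 it was 0.75 (adjusted p = 0.735, edgeR), and the log2 fold change of Touchdome against HF was -4.13.

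Hoxc12, the neighbour of Hoxc13, was removed by the filter on low counts. Without the filter, it was called neither in Touchdome against HF (adjusted p = 0.155, edgeR) nor in HF against IFE (adjusted p = 0.089, edgeR). It had 0 counts in each Touchdome library, 13, 2 and 3 counts in HF (1.27, 0.45 and 0.41 TPM) and 0 counts in each IFE library. Set against 3 counts over the group, the 18 counts of HF gave a ratio of at least 5.0 to Touchdome and at least 7.67 to IFE. These bounds take the HF counts as exact and leave out their own error. The 13 counts of HF replicate 1 make up most of this signal.

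Cd34 and Lhx2, genes of the follicle bulge, were high in the same libraries as Hoxc13 and the Hoxd genes. Cd34, a bulge marker, had 14, 17.4 and 77.4 TPM in Touchdome, 548, 598 and 669 TPM in HF, and 0.99, 1.90 and 1.59 TPM in IFE. Lhx2, a transcription factor of follicle stem cells, had 17.7, 23.4 and 66.8 TPM in Touchdome, 499.9, 481 and 439 TPM in HF, and 3.85, 5.05 and 4.55 TPM in IFE. In Touchdome replicates 1, 2 and 3, the level of Cd34 was 2.32%, 2.87% and 12.8% of the HF mean, that of Hoxc13 4.94%, 5.89% and 28.7%, that of Hoxd4 5.28%, 3.16% and 16.1%, and that of Hoxd8 3.89%, 3.41% and 23.9%. Replicate 3 had the highest of its group in each of these genes. Over the 5 markers of bulge and hair germ, Cd34, Krt15, Lhx2, Sox9 and Lgr5, the summed level was 6752 to 7970 TPM in Touchdome, 11500 to 13070 TPM in HF and 7886 to 10520 TPM in IFE, and 5 of 5 fell in Touchdome against HF, 2 of 5 rose in Touchdome against IFE and 4 of 5 rose in HF against IFE. Of all tested genes, 24.6%, 1.30% and 33.0% were called in either direction in these comparisons. The sum is mostly Krt15, which averaged 7230 TPM in Touchdome, 11040 TPM in HF and 8912 TPM in IFE and had a log2 fold change of -0.46 in Touchdome against IFE (adjusted p = 0.276, edgeR) and 0.08 in HF against IFE (adjusted p = 0.729, edgeR). The share of follicle cells among the sorted Touchdome cells was not measured here, and its part in these results was not tested.

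**Figure D4:**
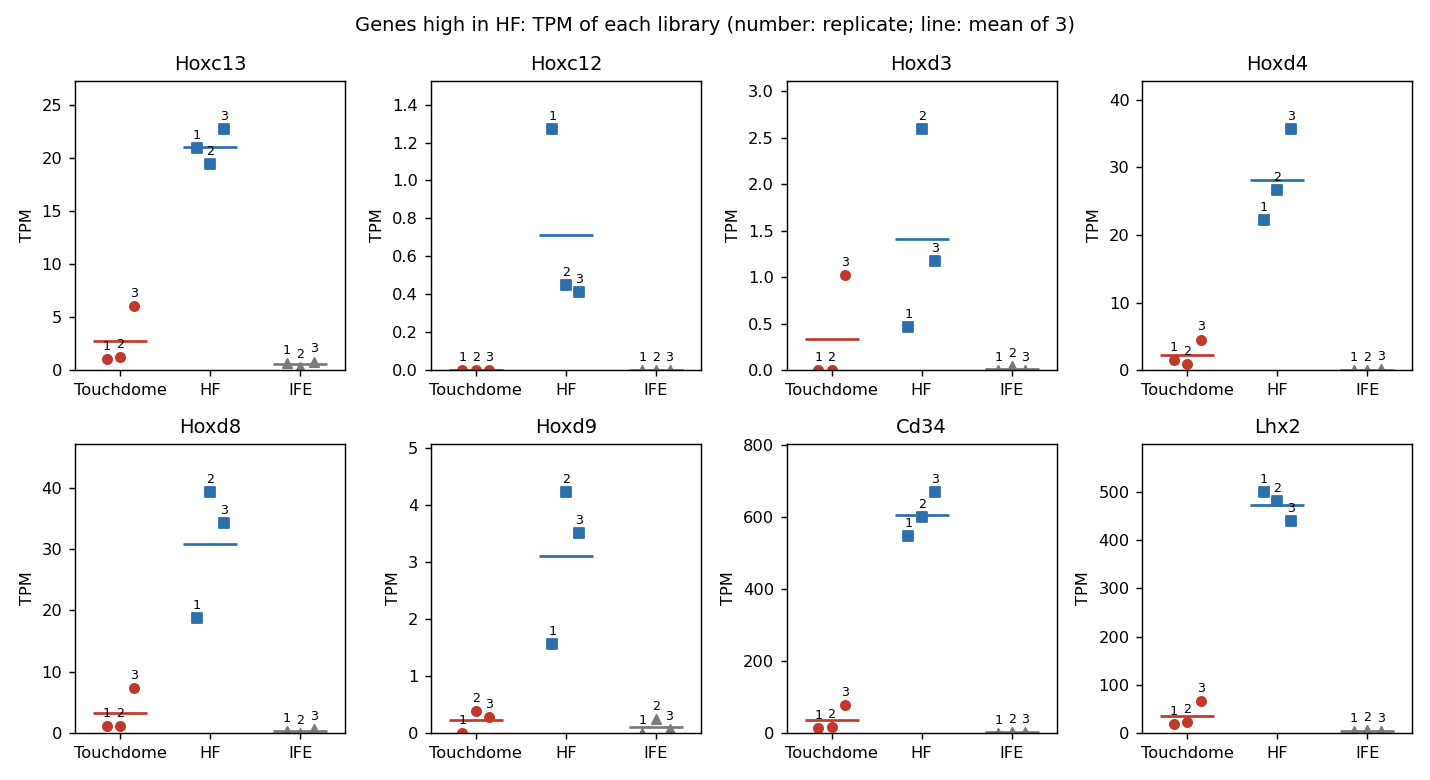
TPM of each library (vertical axis) for Hoxc13, Hoxc12 and 4 Hoxd genes and for the bulge genes Cd34 and Lhx2, in Touchdome, HF and IFE (horizontal axis), with the replicate number at each point and a line at the mean of 3 libraries. HF lies above both other groups in each panel except that of Hoxd3, where Touchdome replicate 3 falls inside the HF range, and Touchdome replicate 3 is the highest of its group in each panel except those of Hoxc12 and Hoxd9.

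Markers of other skin cells also differed between the groups in which these genes differed. The 6 fibroblast markers summed to 8.12, 7.82 and 25.4 TPM in Touchdome replicates 1, 2 and 3, 20.4 to 31.4 TPM in HF and 0.16 to 1.57 TPM in IFE. Most of the HF sum was Col1a2, with a mean of 22.5 TPM. The HF means of Col1a1, Pdgfra, Col3a1 and Dpt were 3.26, 0.857, 0.0833 and 0 TPM. Of the 6 fibroblast markers, 0 were higher and 1 was lower in Touchdome against HF, 1 was higher and 0 were lower in Touchdome against IFE, and 3 were higher in HF against IFE. In the same order of comparisons, 24.6%, 1.30% and 33.0% of all tested genes were called in either direction. Col1a2, a collagen gene, rose by 5.66 ± 0.44 in Touchdome against IFE (log2; adjusted p = 0.000182, edgeR) and by 7.48 ± 0.44 in HF against IFE (adjusted p = 8.51e-07, edgeR), while Lum, a defining matrix gene of fibroblasts, was at 0 in the Touchdome and HF libraries. The 6 melanocyte markers summed to 9.07, 8.78 and 39.6 TPM in Touchdome replicates 1, 2 and 3, 58.3 to 72.2 TPM in HF and 4.44 to 7.50 TPM in IFE, most of it Mitf in HF, and 4 rose in HF against IFE. The 3 sebaceous markers summed to 98.9, 132 and 203 TPM in these Touchdome libraries, 595 to 1237 TPM in HF and 79.7 to 135 TPM in IFE, and 3 of 3 rose in HF against IFE. Touchdome replicate 3 was the highest of its group in these 3 sums, as in Hoxc13, Hoxd4 and Hoxd8. The 6 Merkel cell markers summed to at most 9.50 TPM in any library, with Atoh1 and Sox2 at 0 throughout, and Krt8, the 1 tested member, rose in Touchdome against IFE by 5.37 ± 1.04 (adjusted p = 0.0225, edgeR) and in HF against IFE by 4.83 ± 1.04 (adjusted p = 0.00300, edgeR). Of the 133 Krt8 counts in Touchdome, 112 came from replicate 1, and IFE had 4 counts in all. The 5 Langerhans and myeloid markers summed to 166 to 373 TPM, 80.3 to 547 TPM and 139.9 to 263 TPM in Touchdome, HF and IFE. Dermal papilla markers summed to at most 9.72 TPM, Schwann cell markers to at most 26.9 TPM and endothelial markers to at most 2.03 TPM in any library. Among them Hhip, of the dermal papilla list, rose in HF against IFE by 8.92 ± 0.56 (adjusted p = 2.23e-07, edgeR) and Sox10, of the Schwann and melanocyte lists, by 3.87 ± 1.21 (adjusted p = 0.0259, edgeR), while Rspo3 of the dermal papilla list and Mbp of the Schwann list fell. The part of these cells in the levels of the Hox genes was not tested.

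At the other end of the Hoxc cluster the order of the groups turned round. Hoxc4, a gene of the neck and upper trunk, had 18.7, 19.9 and 17.6 TPM in Touchdome, 4.20, 4.19 and 5.89 TPM in HF, and 13.6, 11.4 and 14.1 TPM in IFE. HF was the lowest group and Touchdome the highest, with no overlap between groups. Hoxc4 was higher in Touchdome than in HF by 2.02 ± 0.20 (adjusted p = 1.13e-05, edgeR) and fell in HF against IFE by 1.63 ± 0.19 (log2; adjusted p = 3.50e-05, edgeR), and both calls held in all 16 alternatives. Between Touchdome and IFE the difference was 0.39 ± 0.18 (adjusted p = 0.471, edgeR). It was the only Hox gene called lower in HF than in IFE by edgeR with all libraries. The 4 T cell markers summed to 174 to 198 TPM in Touchdome, 8.68 to 18.5 TPM in HF and 121 to 239.6 TPM in IFE, nearly all of it Thy1. Of these, Thy1 and Cd3e were called lower in HF than in IFE, Trdc did not pass, and Cd3g had a log2 fold change of 0.39 (adjusted p = 0.7205, edgeR). Their part in the Hoxc4 result was not tested.

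Hoxc5, its neighbour, had 14, 9.81 and 11.6 TPM in Touchdome, 4.35, 9.82 and 3.83 TPM in HF, and 5.46, 4.59 and 5.52 TPM in IFE. Touchdome overlapped HF through HF replicate 2 and lay above IFE. Hoxc5 was higher in Touchdome than in HF by 0.69 ± 0.22 (adjusted p = 0.0400, edgeR), a call that 6 of 16 alternatives ended, such as those without Touchdome replicate 1 or 2, HF replicate 1 or 3, or IFE replicate 3. Against IFE the log2 fold change from counts was 0.33 ± 0.22 in Touchdome (adjusted p = 0.704, edgeR). It ran from 0.21 to 1.16 over the alternatives. TPM and counts differ for this gene: Touchdome and IFE averaged 11.8 and 5.19 TPM, but 10.8 and 8.605 CPM.

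The middle Hoxc genes, Hoxc6 and Hoxc8, which pattern the thorax, went with the majority. Hoxc6 had 28.7, 27.7 and 25.7 TPM in Touchdome, 47.8, 43.9 and 40.9 TPM in HF, and 23.4, 18.5 and 21.8 TPM in IFE. Hoxc8, which is also needed for brachial motor neurons, had 23.2, 21.8 and 29.6 TPM in Touchdome, 57.3, 41.7 and 48.7 TPM in HF, and 18.0, 19.0 and 12.8 TPM in IFE. Neither gene overlapped between any 2 groups. In HF against IFE, Hoxc6 rose by 0.89 ± 0.14 (adjusted p = 0.000246, edgeR) and Hoxc8 by 1.35 ± 0.19 (adjusted p = 0.000130, edgeR). In Touchdome against HF, Hoxc6 fell by 0.64 ± 0.14 (adjusted p = 0.00387, edgeR) and Hoxc8 by 0.91 ± 0.19 (adjusted p = 0.00313, edgeR) on the log2 scale. Hoxc9, a gene of thoracic motor neurons, was near the floor, with 1.04, 0 and 0 TPM in Touchdome, 0.88, 1.25 and 0.15 TPM in HF, and 0.04, 0 and 0.52 TPM in IFE, and it was called in none of the comparisons (lowest adjusted p = 0.428, edgeR).

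In the Hoxb cluster, 6 of the 8 tested genes rose in HF against IFE, beside 17.1% of all tested genes higher. Hoxb3, Hoxb5, Hoxb6, Hoxb7, Hoxb8 and Hoxb9 rose, while Hoxb2 and Hoxb4 did not pass the edgeR test with all libraries. Hoxb9, which patterns the rib cage, had 10.8, 8.08 and 13.8 TPM in Touchdome, 28.0, 25.1 and 29.2 TPM in HF, and 8.63, 5.37 and 6.81 TPM in IFE. HF lay above the other groups, which overlapped. Hoxb9 rose by 1.78 ± 0.20 in HF against IFE (adjusted p = 2.22e-05, edgeR) and fell in Touchdome against HF by 1.28 ± 0.20 (log2; adjusted p = 0.000437, edgeR), the widest Hoxb difference in both comparisons.

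Hoxb3, a gene of the hindbrain and the pharyngeal arches, had 15.7, 18.9 and 20.5 TPM in Touchdome, 41.8, 34.4 and 36.9 TPM in HF, and 12.6, 10.4 and 12.0 TPM in IFE. The groups were separate, with Touchdome between HF and IFE. The log2 fold change was 1.41 ± 0.17 for HF against IFE (adjusted p = 3.40e-05, edgeR) and -0.84 ± 0.17 for Touchdome against HF (adjusted p = 0.00236, edgeR). For Touchdome against IFE it was 0.57 ± 0.17 (adjusted p = 0.160, edgeR), and this difference passed without Touchdome replicate 1 (adjusted p = 0.0357). Of the exon bases of Hoxb3, 52.9% lie opposite the antisense gene Hoxb3os in GENCODE M21, and without a known strand setting reads of the pair cannot be told apart. Hoxb3os itself had 0.263 ± 0.231 TPM in Touchdome, 1.78 ± 1.82 TPM in HF and 0.907 ± 0.794 TPM in IFE (SD, n = 3 each).

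Hoxb8, whose loss makes mice groom themselves until hair and skin are damaged, had 27.3, 28.4 and 34.1 TPM in Touchdome, 53.2, 48.5 and 55.0 TPM in HF, and 20.3, 26.3 and 18.3 TPM in IFE. Hoxb6, its neighbour but one, had 33.1, 28.3 and 28.6 TPM in Touchdome, 47.5, 39.2 and 38.7 TPM in HF, and 22.7, 25.4 and 21.9 TPM in IFE. The groups were again separate in both genes, in the order HF, Touchdome, IFE. In HF against IFE, Hoxb8 rose by 0.92 ± 0.16 (adjusted p = 0.000769, edgeR) and Hoxb6 by 0.68 ± 0.14 (adjusted p = 0.00224, edgeR). In Touchdome against HF, Hoxb8 fell by 0.62 ± 0.16 (adjusted p = 0.0134, edgeR) and Hoxb6 by 0.43 ± 0.14 (adjusted p = 0.0423, edgeR) on the log2 scale. The second call of Hoxb8 was lost without Touchdome replicate 1 or 2, and that of Hoxb6 in 8 of 16 alternatives, such as those without any one Touchdome or HF library or IFE replicate 3.

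The other risen Hoxb genes, Hoxb5 and Hoxb7, lost their call in 4 of 16 alternatives each. Hoxb5, which acts in the gut and in blood stem cells, had 9.09, 8.96 and 8.43 TPM in Touchdome, 14.2, 9.19 and 13.6 TPM in HF, and 4.93, 7.32 and 4.40 TPM in IFE. Its rise in HF against IFE was 0.94 ± 0.26 (adjusted p = 0.0150, edgeR), and was lost without HF replicate 1, HF replicate 3, IFE replicate 1 or IFE replicate 3. Hoxb7 had 12.6, 20.7 and 17.3 TPM in Touchdome, 25.0, 32.7 and 19.7 TPM in HF, and 11.2, 15.6 and 8.49 TPM in IFE. Its rise was 0.85 ± 0.28 (adjusted p = 0.0367, edgeR), and was lost without HF replicate 1, HF replicate 2, IFE replicate 1 or IFE replicate 3. In Hoxb5 the 3 groups did not overlap, and in Hoxb7 Touchdome overlapped both others.

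Hoxb4, known for its effect on blood stem cells, had 10.5, 9.17 and 9.07 TPM in Touchdome, 13.3, 11.3 and 11.7 TPM in HF, and 5.50, 9.79 and 6.03 TPM in IFE, with a log2 fold change of 0.54 ± 0.24 in HF against IFE (adjusted p = 0.104, edgeR). Hoxb2, a hindbrain gene, had 25.0, 30.8 and 29.3 TPM in Touchdome, 31.8, 33.3 and 33.7 TPM in HF, and 22.5, 38.0 and 22.1 TPM in IFE, with 0.05 ± 0.22 (adjusted p = 0.894, edgeR). In both genes IFE replicate 2 was the highest of its group. Without IFE replicate 2, the log2 fold change in HF against IFE was 0.90 for Hoxb4 and 0.42 for Hoxb2, and both passed the test. With all libraries, Hoxb4 also passed with limma on log2(TPM + 1) (log2 fold change 0.73, adjusted p = 0.0310). On log2(TPM + 0.1) limma gave 0.80 for Hoxb4 (adjusted p = 0.0319).

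In the Hoxa cluster, 2 of 8 tested genes were called in HF against IFE, beside 33.0% of all tested genes. They were Hoxa2 and Hoxa3, genes of the pharyngeal arches that shape the ear and the thymus. Hoxa3 had 16.9, 18.2 and 14 TPM in Touchdome, 23.8, 25.5 and 30.6 TPM in HF, and 15.6, 14.9 and 14.5 TPM in IFE. HF was above both other groups, which overlapped. It rose in HF against IFE by 0.61 ± 0.15 (adjusted p = 0.00812, edgeR) and fell in Touchdome against HF by 0.64 ± 0.15 (log2; adjusted p = 0.00799, edgeR). Hoxa2 had 8.67, 10.6 and 7.37 TPM in Touchdome, 14.3, 13.8 and 11.3 TPM in HF, and 6.72, 6.09 and 5.82 TPM in IFE, with no overlap between groups. It rose in HF against IFE by 0.86 ± 0.22 (adjusted p = 0.00822, edgeR), and between Touchdome and HF its log2 fold change was -0.49 ± 0.22 (adjusted p = 0.128, edgeR).

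Hoxa4, Hoxa5, Hoxa6, Hoxa7 and Hoxa9 did not pass the test in any comparison. Hoxa7, the highest Hox gene, had log2 fold changes of -0.24 ± 0.19 in Touchdome against IFE, 0.16 ± 0.19 in Touchdome against HF and -0.40 ± 0.19 in HF against IFE (adjusted p = 0.781, 0.616 and 0.140, edgeR); without IFE replicate 3 the last of these was -0.58 and passed. Hoxa5, a gene of lung development, had 23.1, 35.7 and 28.5 TPM in Touchdome, 41.4, 35.5 and 42.2 TPM in HF, and 21.8, 37.6 and 20.8 TPM in IFE. IFE replicate 2 was the highest IFE library here too, and without it Hoxa5 passed in HF against IFE (log2 fold change 0.73). Hoxa4 averaged 5.57 ± 1.27 TPM in Touchdome, 4.71 ± 0.543 TPM in HF and 6.24 ± 0.898 TPM in IFE (SD, n = 3 each). Hoxa9, a gene of blood progenitors, averaged 4.71 ± 1.87 TPM in Touchdome, 4.96 ± 3.65 TPM in HF and 3.28 ± 1.4 TPM in IFE. Hoxa6 averaged 10.7 ± 2.11 TPM in Touchdome, 10.4 ± 2.44 TPM in HF and 7.31 ± 3.98 TPM in IFE. In Hoxa4, Hoxa6 and Hoxa9 Touchdome overlapped both other groups, and of these genes HF was separate from IFE in Hoxa4 alone.

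HOX proteins bind DNA together with partner proteins of the PBX, MEIS and PREP (Pknox) families. All 9 partner genes were tested with edgeR: in Touchdome against IFE 0 were higher and 0 lower (1 and 0 at an unadjusted p under 0.05), in Touchdome against HF 2 were higher and 3 lower, and in HF against IFE 3 were higher and 2 lower. The median log2 fold changes were -0.09, -0.23 and 0.19. Among all tested genes, 1.30%, 24.6% and 33.0% were called in either direction in these comparisons. Pbx3 had 9.64, 9.18 and 10.1 TPM in Touchdome, 27.2, 23.3 and 28.9 TPM in HF, and 7.48, 8.82 and 4.95 TPM in IFE, and was higher in HF than in IFE by 1.67 ± 0.19 (adjusted p = 2.52e-05, edgeR). Meis2 went the other way, with 9.52, 13.5 and 11 TPM in Touchdome, 3.79, 3.79 and 2.33 TPM in HF, and 13.7, 10.4 and 9.51 TPM in IFE, and fell in HF against IFE by 1.90 ± 0.22 (log2; adjusted p = 3.13e-05, edgeR). In both genes HF stood apart from the other groups, which for Pbx3 were separate and for Meis2 overlapped.

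Pknox2 averaged 2.71 ± 1.62 TPM in Touchdome, 8.45 ± 2.89 TPM in HF and 1.66 ± 0.362 TPM in IFE (SD, n = 3 each), and rose in HF against IFE by 1.93 ± 0.33 (adjusted p = 0.000551, edgeR). Meis3 fell in HF against IFE by 2.37 ± 0.52 on the log2 scale by counts (adjusted p = 0.00358, edgeR), although its TPM in HF replicate 1 was 5.96, inside the range of IFE. Pbx3, Meis2, Meis3 and Pknox2 were called in the opposite direction in Touchdome against HF, with adjusted p-values from edgeR between 6.33e-05 and 0.0118. Pbx2, Pbx4, Meis1 and Pknox1 did not pass in any comparison.

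**Figure D5:**
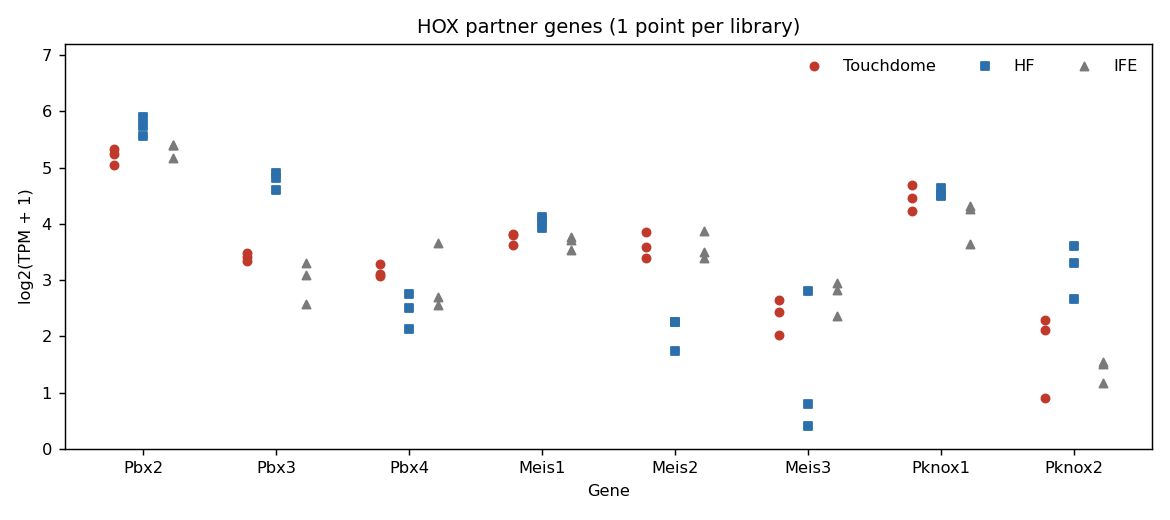
Level of 8 HOX partner genes as log2(TPM + 1) (vertical axis), with 1 point per library for Touchdome (circles), HF (squares) and IFE (triangles) at each gene (horizontal axis). HF lies above the other groups at Pbx3 and Pknox2 and below them at Meis2, and for Meis3 it spreads from 0.32 to 5.96 TPM.

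Polycomb proteins keep Hox genes silent and Trithorax proteins keep them active. Of 27 such genes and other known Hox regulators, 24 were tested, and the intestinal and caudal regulators Cdx1, Cdx2 and Cdx4 were at 0 TPM. By edgeR, in Touchdome against IFE 0 were higher and 0 lower (2 and 0 at an unadjusted p under 0.05), in Touchdome against HF 2 were higher and 5 lower, and in HF against IFE 6 were higher and 3 lower, with median log2 fold changes of 0.05, -0.24 and 0.26. Over all tested genes, 1.30%, 24.6% and 33.0% were called in either direction, so the counts in the comparisons with HF are near the common share. The risen genes in HF against IFE included the Polycomb members Cbx6, Cbx7, Cbx8, Ezh1 and Phc1. Cbx6 had the widest difference, with 15.4 ± 3.25 TPM in Touchdome, 39.6 ± 4.93 TPM in HF and 9.44 ± 3.61 TPM in IFE (log2 fold change of HF against IFE 1.79 ± 0.19, adjusted p = 1.81e-05, edgeR). Ezh2, a Polycomb methyltransferase most active in dividing cells, fell in HF, with 65.0 ± 10.4 TPM in Touchdome, 40.4 ± 6.43 TPM in HF and 59.5 ± 5.29 TPM in IFE (log2 fold change of HF against IFE -0.84 ± 0.12, adjusted p = 0.000190, edgeR). Gmnn, which encodes the replication inhibitor geminin, and Phc2 fell as well. The Trithorax genes Kmt2a, Kmt2b, Kmt2d and Men1 did not pass in any comparison.

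Most hair shaft keratin genes, which Hoxc13 is known to regulate in the growing hair, were barely expressed. Of 24 hair and inner root sheath genes, 23 had an identifier and 10 were tested, and each of the 13 that did not pass the filter averaged at most 0.487 TPM in any group. In Touchdome against IFE 2 were higher and 0 lower by edgeR (4 and 0 at an unadjusted p under 0.05), in Touchdome against HF 3 were higher and 3 lower, and in HF against IFE 3 were higher and 3 lower, with median log2 fold changes of 1.19, 0.64 and 0.19. The shares of all tested genes called in either direction were 1.30%, 24.6% and 33.0%. The genes higher in HF than in IFE were Lef1 and Dlx3, transcription factors of the hair matrix, and Krt75, a companion layer keratin. Lef1 had 1.85, 0.14 and 0.72 TPM in Touchdome, 5.42, 8.23 and 13.1 TPM in HF, and 0, 0.05 and 0.03 TPM in IFE, and Dlx3 had 2.25, 4.29 and 3.29 TPM, 7.24, 7.38 and 7.61 TPM, and 0.76, 0.61 and 0.33 TPM. Both genes were separate in the 3 groups, in the same order as Hoxc13, and in Touchdome against IFE they rose by 4.08 ± 0.87 (Lef1, adjusted p = 0.0389, edgeR) and 2.41 ± 0.37 (Dlx3, adjusted p = 0.00582, edgeR). Foxn1, a target of Hoxc13 whose loss causes the nude phenotype, went the other way, as did Gata3 and Krt32. Foxn1 had 6.74, 9.04 and 6.47 TPM in Touchdome, 1.86, 1.5 and 1.18 TPM in HF, and 3.81, 4.80 and 3.60 TPM in IFE. It fell in HF against IFE by 1.64 ± 0.27 (log2; adjusted p = 0.000465, edgeR). Gata3 averaged 387, 107.5 and 386 TPM in Touchdome, HF and IFE. In HF against IFE it fell by 2.08 ± 0.21 (log2; adjusted p = 1.015e-05, edgeR). Krt32 averaged 22.2, 15.1 and 27.6 TPM in that order and fell by 1.10 ± 0.29 (log2; adjusted p = 0.0113, edgeR).

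Non-coding genes lie between the Hox genes. Of 18 listed, 16 had an identifier and 5 were tested with edgeR: in Touchdome against IFE 0 were higher and 0 lower (0 and 0 at an unadjusted p under 0.05), in Touchdome against HF 0 were higher and 1 lower (0 and 3 unadjusted), and in HF against IFE 2 were higher and 1 lower, with median log2 fold changes of 0.23, -1.02 and 0.66. Beside them, 1.30%, 24.6% and 33.0% of all tested genes were called in either direction. Hoxd3os1, antisense to Hoxd3 and Hoxd4, had 0.86, 0.36 and 0.64 TPM in Touchdome, 4.20, 18.0 and 11.7 TPM in HF, and 0.58, 0 and 0 TPM in IFE. HF was above both other groups, as for Hoxd4 on the other strand but not for Hoxd3, where Touchdome replicate 3 lay inside the HF range. The log2 fold change of Hoxd3os1 was 5.23 ± 1.15 for HF against IFE (adjusted p = 0.00348, edgeR) and -3.92 ± 1.07 for Touchdome against HF (adjusted p = 0.0171, edgeR). Reads of the overlapping stretch cannot be assigned to a strand here. Hoxaas2, beside Hoxa3, rose in HF against IFE by 1.24 ± 0.37 (adjusted p = 0.0202, edgeR). Hotairm1, another of these genes, fell by 1.18 ± 0.38 (log2; adjusted p = 0.0306, edgeR), and averaged 44.3 ± 16.5 TPM in Touchdome, 15.3 ± 11.2 TPM in HF and 39.9 ± 13.4 TPM in IFE (SD, n = 3 each). These levels of Hotairm1 rest on only 110 counts over the Touchdome libraries, 84 in HF and 240 in IFE. Hotair and Hottip, at the silent ends of the Hoxc and Hoxa clusters, were at 0 TPM in all 9 libraries.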

How the data were processed

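RNA was measured in 9 libraries, 3 per group, prepared by poly(A) selection from 50 ng of RNA and sequenced in paired reads of 150 nt (per the labels). The deposited table holds, per gene and library, an expected count (an estimated read count that need not be whole, not scaled between libraries) and a TPM value (per transcript length), both made by the authors. The tools RSEM 1.3.3, STAR 2.7.9a and DESeq2 1.38.2 and the build mm39 are named in the submitters' processing notes. Their roles, the annotation and the strand setting were not given in the sources used here. Reads shared between overlapping or similar genes were therefore divided in a way that cannot be checked. Symbols came from GENCODE M21, which matched 52081 of 55357 identifiers. Promoter sequences came from RefSeq on GRCm38.p6, another build than that of the counts, and 22 of the 39 Hox genes had an entry.

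Expected counts were rounded. With edgeR 4.0.16 in R 4.3.3, low genes were removed by filterByExpr (at least 10 counts, and 15 in total, over 3 groups), libraries were scaled by TMM, and genes were tested by the robust quasi-likelihood test in 1 fit of all 9 libraries and Benjamini-Hochberg adjustment over 15046 genes (threshold 0.05). Fold changes are log2 values from counts, with an SE derived from the test statistic, and levels are the authors' TPM values. Summed levels, shares and detection carry no test. Counting intervals and floors cover counting error only. Alternatives were size factors of DESeq2 1.42.0 in edgeR, the DESeq2 Wald test, no filter, limma 3.58.1 on log2(TPM + 1) and log2(TPM + 0.1), the replicate number as a block, only the 2 groups compared, and leaving out each library, 16 in all. The test was run on simulated counts first. No pair of libraries of a group agreed within sampling noise.

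Libraries with the same number in Touchdome and IFE deviated together from their group means (r = 0.146, 0.173 and 0.203 across genes), so the numbers may pair these 2 groups. The edgeR p-values with all libraries come from the fit without a block, which ignores such a pairing. The block was run as an alternative. The labels do not say what a number marks. The replicate block changed no call of a Hox gene in Touchdome against IFE (adjusted p = 0.000516 for Hoxd4 and 0.0113 for Hoxd8), and it raised the counts over all genes to 282 higher and 67 lower, against 184 and 12.

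The Hox genes and all gene lists were chosen with earlier results of these data known. Named genes are the Hox genes, the partner list, up to 4 called members per comparison of each other list, and the sort genes. Results for some of these genes are not reported here.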

Additional observations from a re-analysis of the deposited data

How the results depend on the processing

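Of the 26 tested Hox genes in 3 comparisons, the calls that a setting ended are given with each gene above, and no called gene changed its direction. The number of Hox genes higher in Touchdome than in IFE (2) was 1 without the filter, 0 and 1 with limma on log2(TPM + 1) and log2(TPM + 0.1), 1 with only the 2 groups compared, and 1 to 3 when a library was left out. The adjusted p of Hoxd4 was 0.141 with limma on log2(TPM + 1). The number higher in Touchdome than in HF (2) was 1 without the filter and 1 to 2 when a library was left out, and the number lower in HF than in IFE (1) was 1 to 2. Over all genes, Touchdome against IFE gave 446 higher and 84 lower with DESeq2, 100 higher and 0 lower with limma on log2(TPM + 1), 0 lower with limma on log2(TPM + 0.1), 49 lower without the filter, 282 and 67 with the replicate block, 102 and 5 with only the 2 groups, and 105 to 213 and 3 to 29 with a library left out. HF against IFE gave 1209 and 1219 lower genes with limma. By expected counts, the Hoxb share was 36.2% in Touchdome and 38.99% in HF.

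Directions turned in genes that were not called. In Touchdome against IFE, limma on log2(TPM + 1) and log2(TPM + 0.1) gave log2 fold changes of 0.11 and 0.11 for Hoxa3, 0.15 and 0.15 for Hoxa5, and 0.081 and 0.085 for Hoxb2, and in HF against IFE 0.083 and 0.081 for Hoxc5. With a library left out, Touchdome against IFE spanned -0.11 to 0.066 for Hoxa3, -0.21 to 0.35 for Hoxa5, -0.42 to 0.072 for Hoxa7, -0.29 to 0.25 for Hoxb2, -5.29 to 3.74 for Hoxc9 and -1.75 to 6.24 for Hoxd3. Touchdome against HF spanned -0.055 to 0.31 for Hoxa6, and HF against IFE spanned -0.030 to 0.63 for Hoxa6 and -0.12 to 0.42 for Hoxb2. The causes were not tested.

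In Touchdome against HF and in HF against IFE, libraries with the same number did not deviate together (r = -0.0257 to 0.0701), and the replicate block changed no count of Hox calls there. Depth limits Hoxb1, Hoxc9, Hoxc12, Hoxd1, Hoxd3 and Hoxd9, whose levels rest on few counts, and genes at 0 were not detectable at this depth.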
